A study of Mus musculus with 4 samples.

Results

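RNA from dendritic cells (DCs) of MC38 tumours was compared between mice given X-Ray+O-IMDQ and mice given PBS, with the cells taken 72 h after the second treatment. DCs are the antigen-presenting cells that start T cell responses. MC38 is a mouse colon carcinoma line grown as a tumour in mice. O-IMDQ is known here only by its label, and the design text speaks of a prodrug that radiotherapy activates, while PBS is the saline vehicle. Mouse strain, age, number of pooled animals and sorting markers were not given in the sources used here. Each group had 1 library, and the 2 DC libraries are 2 of the 4 in the series, whose CD3+ T cell libraries from the same treatments serve below only as a reference. Genes were members if they had a symbol and 20 or more counts in either library, which held for 10316 of 21959 listed genes. Of these, 3458 had 300 or more counts in both libraries and carry most of the account.

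The PBS library held 23797357 counts and the treated library 14056428. Counts were scaled to each other by TMM, a factor that centres the bulk of genes, and CPM below, the usual depth-normalised count, is given after that scaling. The ratio of treated over PBS is given as a fold or on the log2 scale with a 95% exact binomial interval. That interval takes in counting error only, as if reads were independent of each other. Copies made by PCR are not, so it can be too narrow, and it holds no variation between libraries. To be called higher or lower, a gene had to be at least 2-fold apart with an interval that left out equality. A library at 0 counts was set to 3, the most that a count of 0 allows, equal to 0.123 CPM for PBS and 0.218 CPM for treatment. With 1 library per group there is no replicate error. Every statement therefore compares these libraries and not the conditions, and no p-value is given.

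As background, tumour DCs read nucleic acids from damaged cells through endosomal and cytosolic sensors. Such sensing leads to interferon production, and interferon acts through JAK kinases and STAT factors on a large set of antiviral genes. DCs also take up antigen, cut it in lysosomes and the proteasome, and show the peptides on MHC class II and class I molecules. Maturation adds costimulatory ligands, chemokines and the receptors that carry DCs to lymph nodes.

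The treated DC library held more RNA for interferon signalling and antiviral genes, chemokines and ribosomal proteins than the PBS library, and for 13 of 26 nuclear oxidative phosphorylation genes, with 5 lower. It held less RNA for MHC class II, lysosomal genes and proteasome subunits, and of 20 well-counted glycolysis and hypoxia genes 10 were lower and 5 higher. Cd86, a costimulatory ligand of CD28, was higher, while genes of mature DCs were split, with Ccl17 and Cd200 higher and Cd83 and Ccr7 lower. Among genes with 300 or more counts in both libraries, 26.9% were called higher and 20.5% lower, so a gene list is read against those shares. Together 47.4% were called. Among all 10316 genes 30.2% were higher and 41.8% lower, 72.0% together, and at 4-fold 18.6% were higher and 31.9% lower, 50.6% together.

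The labelled cell type was checked against defining genes. Zbtb46, a lineage factor of conventional DCs, and Flt3, the receptor for their growth signal, were scarce, with 9 and 16 counts in the PBS library and 57 and 69 in the treated library. From these few counts Flt3 was called higher with treatment, by 7.61-fold (interval 4.37 to 14.0). Itgax, which encodes CD11c, had 3982 and 3547 counts. Batf3, a factor needed by cDC1 (the cross-presenting subset), had 479 counts with PBS and 0 with treatment. Conventional DC markers summed to 59230 CPM with PBS and 8658 CPM with treatment, mostly H2-Ab1 at 48186 and 6015 CPM. Of 10 measured, 4 were higher and 3 lower. Of 5 with 300 or more counts in both libraries, 1 was higher and 2 lower. Markers of macrophages were abundant in both libraries. Their summed level was 29550 CPM with PBS and 9197 CPM with treatment, against 1037 and 976.5 CPM in the T cell libraries. Of 17 macrophage markers with 300 or more counts in both DC libraries, 9 were called lower and 1 higher, with a median log2 ratio of -1.31. Both libraries thus held MHC class II and Itgax RNA, little RNA for Zbtb46 and Flt3 and much for macrophage genes. In bulk samples, fewer cells of a type and less RNA per cell cannot be told apart.

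Markers of each cell type other than DCs summed to less than the macrophage markers in both DC libraries. T cell markers summed to 133.7 CPM with PBS and 114.2 CPM with treatment, against 19360 and 20590 CPM in the T cell libraries. Of 10 measured T cell markers 3 were higher and 6 lower. Cd3d had 434 counts with PBS and 812 with treatment, Cd3g 576 and 1, and Cd2 574 and 0. Cd3e, Cd4 and Cd247 were at 0 in both DC libraries. NK cell markers summed to 670.6 and 1212 CPM, with Ncr1 and Prf1 at 0 in both. The granzyme genes Gzma and Gzmb had 108 and 0 counts with PBS and 919 and 391 with treatment. Of 9 measured NK cell markers 5 were higher and 1 lower. Neutrophil markers summed to 2084 and 1263 CPM, against 167.2 and 245.7 CPM in the T cell libraries. In both DC libraries 8 of 16 were at 0, among them S100a9 and Ly6g. Monocyte markers summed to 2080 CPM with PBS and 3104 CPM with treatment, against 3422 and 5358 CPM in the T cell libraries. Plasma cell and erythroid markers summed to 550 and 226.8 CPM with PBS and to 74.88 and 391.9 CPM with treatment. Only 1 plasma cell marker, Xbp1, had 300 or more counts in both DC libraries, at a log2 ratio of -3.14. Xbp1 is also a gene of the unfolded protein response, so this sum is no measure of plasma cells alone. B cell, fibroblast, endothelial and epithelial markers each summed to at most 188.2 CPM, and Pdgfra, Cdh5 and Krt8 were at 0 in both. The fibroblast markers Col3a1 and Dcn had 1113 and 1204 counts with PBS and 1299 and 230 with treatment. Cdh1, an epithelial marker, had 662 and 776 counts.

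DC subset genes were split. Clec9a, the cDC1 receptor for dead-cell actin, had 154 counts with PBS and 952 with treatment, 10.9-fold higher (log2 interval 3.20 to 3.70). Xcr1, the chemokine receptor of the same subset, had 213 and 152 counts and was not called. Cd209a, a lectin of cDC2 (the other conventional subset), had 9441 and 329 counts, 16.3-fold lower (interval 14.6 to 18.2). Sirpa, also a cDC2 gene, had 3902 and 7411 counts, 3.35-fold higher. Of 11 measured cDC1 markers 6 were higher and 3 lower, and of 11 cDC2 markers 4 were higher and 6 lower. Among those with 300 or more counts in both libraries the calls were 3 and 0 of 4 for cDC1 and 4 and 3 of 8 for cDC2. Siglech, which marks plasmacytoid DCs, had 166 counts with PBS and 0 with treatment.

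The 2 libraries differed broadly. The log2 ratios of the 3458 well-counted genes had a median of 0.17, quartiles at -0.78 and 1.09 and an SD of 1.43. For 5303 genes counted as deeply in both T cell libraries the SD was 0.68, with 7.98% called higher and 5.75% lower, 13.7% together. Among genes with 300 or more counts in both, more depth did not narrow the spread between the DC libraries, although genes whose smaller count lay from 20 to 100 had a wider SD of 2.80. Genes whose smaller count lay from 300 to 1000 had an SD of 1.42, and the 150 genes with 10000 or more counts in both had an SD of 1.52. The median interval width fell from 0.31 to 0.06 between those classes. The spread is thus far wider than counting error, and with 1 library per group the treatment and the library cannot be told apart. Only 2 of the 10 most counted genes, Cst3 and Fth1, and 36 of the 100 most counted genes were the same in both libraries.

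**Figure D1:**
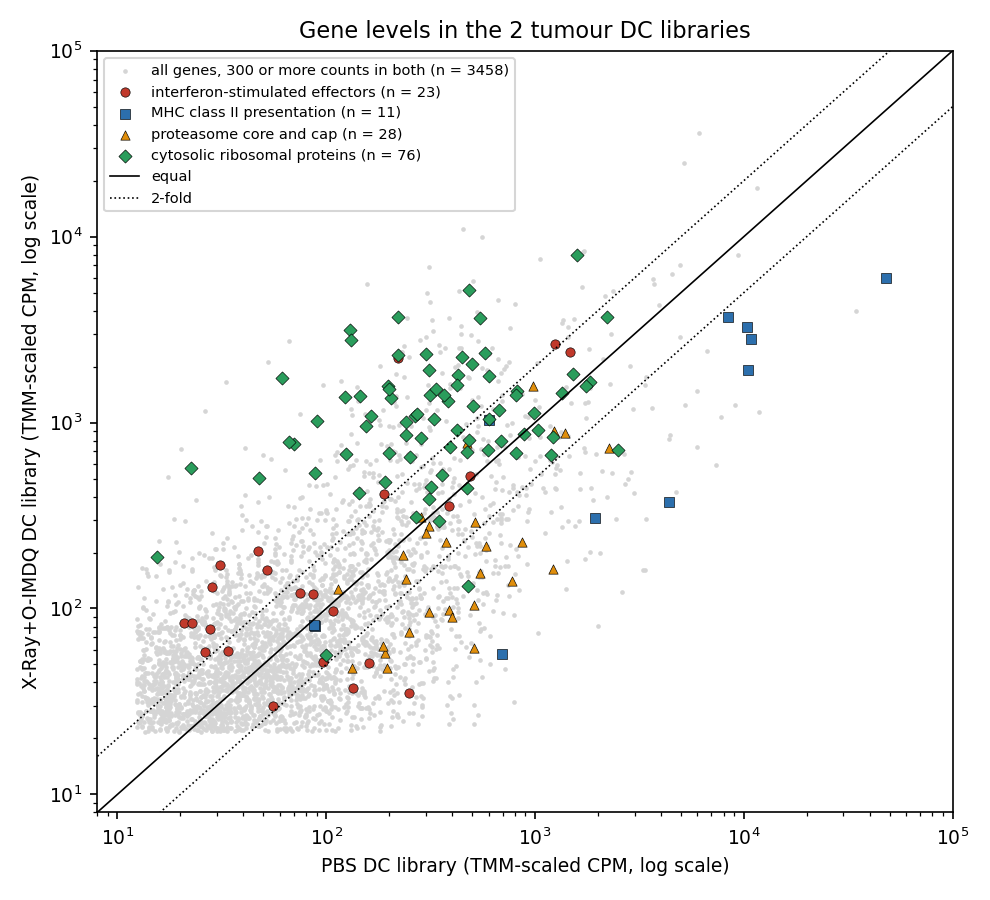
Level of each gene with 300 or more counts in both DC libraries, as TMM-scaled CPM on log axes, PBS on x and X-Ray+O-IMDQ on y, 1 library each. MHC class II (squares) and proteasome genes (triangles) lie mostly below the line of equality, and ribosomal protein genes (diamonds) mostly above it.

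By counts, the PBS library was led by H2-Ab1 (1170633 counts, against 82819 with treatment), Lyz2 (836671 against 54737) and Ctsc (288429 against 15717). These encode an MHC class II chain, the lysozyme of myeloid cells and the protease cathepsin C. All 3 were lower with treatment, by 8.01-fold, 8.66-fold and 10.4-fold. The treated library was led by Tmsb4x (500239 counts, against 148896 with PBS), Lgals1 (343347 against 125353) and Cst3 (252123 against 281546). These encode the actin-sequestering thymosin beta-4, galectin-1 and the protease inhibitor cystatin C. Tmsb4x was 5.93-fold higher and Lgals1 4.83-fold higher, while Cst3 was 1.58-fold apart and not called. Cd52, Cox6b1, Rpl41 and S100a6 were also among the 10 most counted genes of the treated library, between 4.86-fold and 7.22-fold higher.

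Ribosomal protein and mitochondrially encoded genes, gene models and receptor segments were left out of the ranking of genes by ratio. Of the 15 highest remaining genes, 8 were nuclear genes of mitochondrial proteins. Ndufb1 and Ndufa3, accessory subunits of respiratory complex I, had 3823 and 10985 counts with PBS and 76219 and 151051 with treatment. They were 35.2-fold (interval 34.1 to 36.3) and 24.3-fold (interval 23.8 to 24.7) higher. Atp5k, Atp5md and Atpif1, subunits and inhibitor of ATP synthase, were 41.4-fold, 22.1-fold and 16.5-fold higher, and Cox7c, a subunit of cytochrome c oxidase, was 15.1-fold higher. Pet100, an assembly factor of that oxidase, and Mrpl33, a protein of the mitochondrial ribosome, were 39.9-fold and 44.1-fold higher. In the T cell libraries Ndufb1 had 4294 and 2108 counts, Ndufa3 11417 and 8107 and Cox7c 10423 and 5111, with Ndufb1 and Cox7c called lower there and Ndufa3 not called.

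The other 7 of the 15 highest came from varied pathways. Arl5c, an ARF-like GTPase gene (chromosome 11, 97880404 to 97887007, GRCm39), led them with 805 counts with PBS and 22623 with treatment, 49.6-fold higher (interval 46.2 to 53.3). Hk2, the inducible hexokinase, had 488 and 9953 counts. Bcl2a1b, a survival gene of the BCL2 family with near-identical copies, had 424 and 6979, so its count is uncertain. Map3k8, the kinase TPL2 that links TLR signals to ERK, had 455 and 4160 counts, 16.1-fold higher. Ccl6, a myeloid chemokine, had 13476 and 136973. Anapc13 and Arpp19, both regulators of mitosis, were 17.8-fold and 16.4-fold higher.

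The 15 lowest genes included phagocyte surface and lysosomal genes. C1qa (chromosome 4, 136623228 to 136626114, GRCm39), the A chain of complement C1q, had 19209 counts with PBS and 435 with treatment, a log2 ratio of -4.65 (22.8-fold to 27.6-fold lower). Cd14, the co-receptor for lipopolysaccharide, had 178473 and 8166 counts, 12.4-fold lower. Cd63 and Glmp, membrane proteins of lysosomes, were 16.9-fold and 20.1-fold lower. Housekeeping genes stood beside them. Pfn1, which encodes the actin-binding profilin, had 80015 and 2223 counts, 20.4-fold lower, and Eif5a, a translation factor, had 81889 and 2217, 20.9-fold lower. Oaz1, an inhibitor of polyamine synthesis, had 48685 and 1105 counts, a log2 ratio of -4.64. Eno1, the glycolytic enolase, was 21.3-fold lower. In the T cell libraries Pfn1 had 109244 and 108273 counts, Eif5a 47342 and 53283 and Eno1 38335 and 39322, and none was called there. Txn2, Fis1 and Ndufs7 are nuclear genes of mitochondrial proteins, and they were 15.2-fold, 14.5-fold and 13.1-fold lower. The mitochondrial genes were thus found at both ends of the range. Tm2d2, Eif4ebp1, Rnh1 and Cd209a completed the 15.

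**Figure D2:**
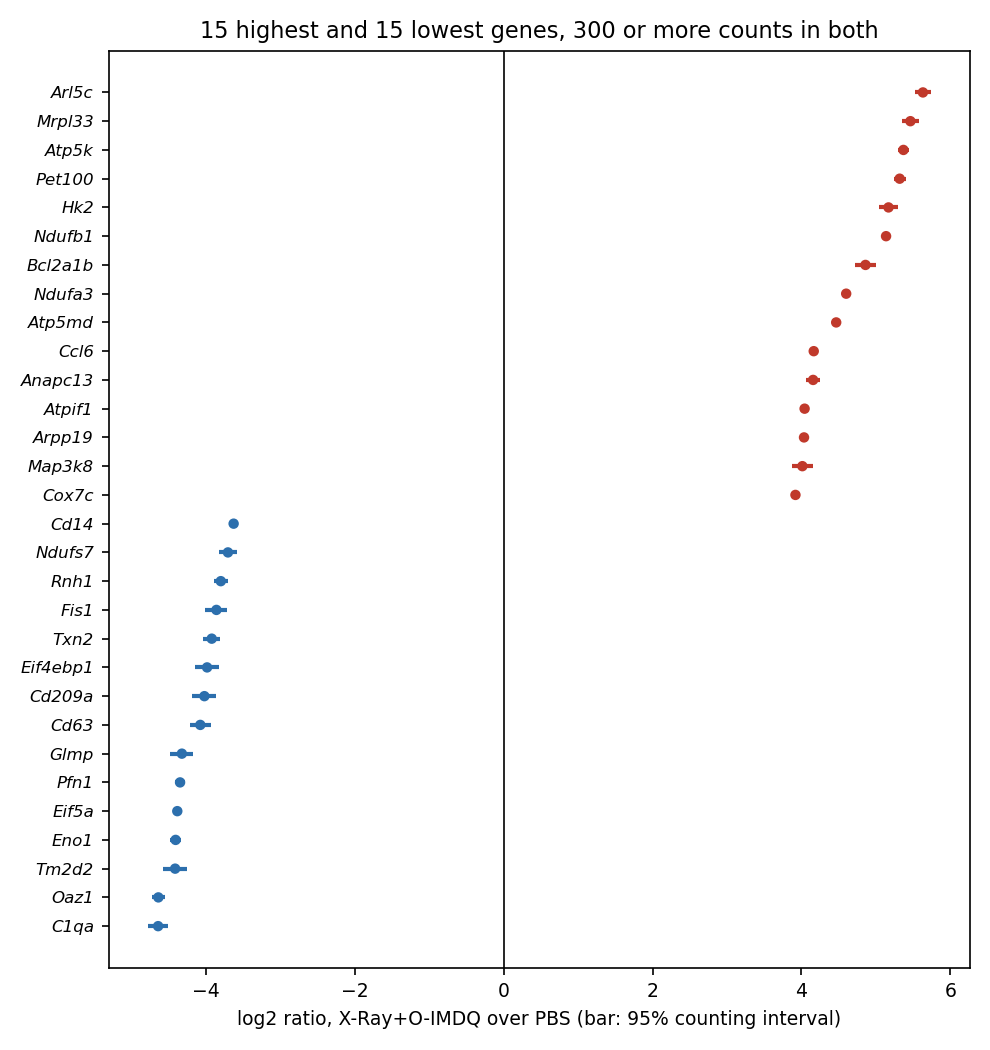
Log2 ratio of treated over PBS for the 15 highest and 15 lowest genes with 300 or more counts in both DC libraries, without ribosomal protein and mitochondrially encoded genes, gene models and receptor segments; bars are 95% counting intervals. The highest run from Cox7c at 3.92 to Arl5c at 5.63 and the lowest from Cd14 at -3.63 to C1qa at -4.65, with intervals that are narrow beside the ratios.

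Genes that were at least 4-fold apart had shorter listed lengths than the rest. The 304 genes called higher at 4-fold (8.79% of those counted 300 or more times in both) had a median length of 3023 bases, and the 239 lower genes (6.91%, together 15.7%) one of 2675 bases, against 3930 bases over all. Their median transcript GC content was 47.6% and 52.1%, against 48.7% over all. Of the 692 shortest genes, from 383 to 2065 bases, 217 were higher and 183 lower, and of the 692 longest, from 7149 bases up, 227 were higher and 59 lower. Ratios adjusted for length and GC by smooth fits are given below beside the lists whose median or calls moved most. Of the 304 genes, 239 also had 300 or more counts in both T cell libraries, and 3.77% of them were higher and 16.3% lower there. Over all genes counted that deeply in both cell types the T cell shares were 6.82% and 5.64%.

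Interferon genes were read from the sensors down to the effectors. Of 11 well-counted genes for cytosolic nucleic acid sensing, 6 were higher and 0 were lower, at a median log2 ratio of 1.13, or 0.78 after the length and GC adjustment. Dhx58, the helicase LGP2 that modulates RNA sensing, had 385 counts with PBS and 1091 with treatment (interval 4.45-fold to 5.63-fold higher). Ifi207 and Ifi204, which belong to the DNA-binding Ifi200 family, had 370 and 827 counts with PBS and 2061 and 1822 with treatment. They were 9.83-fold and 3.89-fold higher, with the reserve that members of this family have similar sequences. Sting1, the adaptor of cGAS, had 3162 and 1211 counts and was not called, and neither was Zbp1, which detects left-handed nucleic acid, with 3622 and 1476. Tank, an adaptor of the kinase TBK1, had 982 counts with PBS and 3 with treatment, 186-fold lower with a wide interval from 63.3 to 901.

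Of 21 genes for interferon receptors, JAK-STAT factors, IRFs and their brakes, 8 were higher and 2 were lower, at a median log2 ratio of 0.66. Irf7 (chromosome 7, 140842619 to 140846394, GRCm39), the factor that drives interferon-alpha genes, had 1223 counts with PBS and 3113 with treatment (interval 4.20-fold to 4.80-fold higher). Irf8, a lineage factor of cDC1, had 1866 and 2153 counts, 2.04-fold higher. The receptors did not follow. Ifngr1, a chain of the interferon-gamma receptor, had 6760 and 541 counts, 7.08-fold lower (interval 6.49 to 7.74), and Ifnar1, a chain of the type I receptor named after its values were seen, had 3258 and 847, 2.18-fold lower. Ifnb1, the interferon-beta gene, had 0 counts with PBS and 1 with treatment, too few for a ratio.

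Among 23 well-counted interferon-stimulated effectors, 11 were higher, 3 lower and 9 neither, with a median log2 ratio of 0.79, or 0.54 after the length and GC adjustment, under which 9 were higher and 5 lower. Over 43 effectors with 20 or more counts in either library, 27 were higher and 6 lower. Ifi27l2a, a small membrane protein, had 5336 counts with PBS and 30765 with treatment, 10.2-fold higher (interval 9.88 to 10.5), though 1.51 on the log2 scale after the adjustment against 3.35 before. Rtp4, Isg20 and Rsad2 encode a chaperone, an RNA exonuclease and the antiviral enzyme viperin. They had 755, 1140 and 504 counts with PBS and 2352, 2796 and 1145 with treatment, between 4.01-fold and 5.50-fold higher. Mx1, an antiviral GTPase, and Ifi44, an interferon-induced gene, were at 0 with PBS and had 779 and 1040 counts with treatment, at least 458-fold and 612-fold higher at the floor of 3 counts. Ifi27, an interferon-induced gene outside the list and named after its values were seen, ran the other way. It had 2380 counts with PBS and 0 with treatment, 450-fold lower at that floor. Lgals3bp, a secreted glycoprotein, had 6043 and 486 counts, 7.05-fold lower, and so ran against the list. The lower effectors Oas1a and Ifi35, named after their values were seen, had 3266 and 3904 counts with PBS and 516 and 701 with treatment. Isg15, the ubiquitin-like modifier, had 1354 and 413 counts, a log2 ratio of -0.89, and was not called. In the T cell libraries 14 of 21 well-counted effectors were higher and 0 lower.

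The promoters of effectors that differed in direction are shown because they carry the same letters. The letters searched were GAAA, any 2 bases and GAAA again, the core of the interferon-stimulated response element, on both strands of the 250 bases before each start in RefSeq promoters (GRCm38.p6). Overlapping matches were counted as 1 gene. The motif and genes were chosen after the data were seen. The capitals mark 1 match in each sequence, which reads as its reverse complement in Ifit3 and Rsad2, and each sequence follows its gene's strand. In Isg15 and Oas1a further matches lie partly or wholly in the lower-case letters.

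Ifit3 (chr19:34583343-34583412, plus strand): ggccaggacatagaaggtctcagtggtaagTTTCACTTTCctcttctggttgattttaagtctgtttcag

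Rsad2 (chr12:26456533-26456602, minus strand): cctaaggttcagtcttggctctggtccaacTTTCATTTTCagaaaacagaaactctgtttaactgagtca

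Isg15 (chr4:156200857-156200926, minus strand): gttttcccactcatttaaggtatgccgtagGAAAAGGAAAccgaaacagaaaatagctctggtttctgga

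Oas1a (chr5:120907526-120907575, minus strand): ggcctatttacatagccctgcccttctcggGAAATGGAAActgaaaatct

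Ifit3, an RNA-binding antiviral protein with 693 and 1790 counts, and Rsad2 were higher with treatment, Isg15 was not called and Oas1a was lower. Ifit3b and Oas1g hold the same letters around the match as Ifit3 and Oas1a. They had 0 and 389 counts with PBS and 29 and 27 with treatment. How reads shared by similar genes were assigned is not given, so the counts of these genes are uncertain. The match was present in 15 of 35 effectors with 20 or more counts in either library and a RefSeq window (42.9%), in 9 of 9 guanylate-binding protein and immunity-related GTPase genes, and in 3.46% of all 27025 genes. Among well-counted genes with a window it was present in 5.50% of those called higher, 5.57% of those called lower and 3.51% of the others. The match is a description of these windows and not a binding site.

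The guanylate-binding proteins and immunity-related GTPases, which attack membranes around intracellular pathogens, were higher for 5 of 12 genes and lower for 1, with a median of 0.09. After the length and GC adjustment 3 were higher and 2 lower, and at 4-fold 0 were called. Gbp3 and Irgm1 had 1558 and 1117 counts with PBS and 2210 and 2008 with treatment, 2.50-fold and 3.17-fold higher. Gbp2, the most counted, had 8900 and 3765 counts and was not called. Tgtp2 was 3.15-fold lower, but it has a near-identical copy and its count is uncertain.

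Endosomal toll-like receptors sense RNA and DNA taken up by the cell. Of 13 well-counted genes of this pathway, 5 were higher and 4 were lower, at a median of 0.61, or 0.23 after the length and GC adjustment, and at 4-fold the balance turned to 1 higher and 2 lower. Over 23 measured genes it turned too, with 7 higher, 10 lower and a median of -0.68. Tlr7 (chromosome X, 166087925 to 166113554, GRCm39), the receptor for single-stranded RNA, had 142 counts with PBS and 474 with treatment, 5.89-fold higher (interval 4.87 to 7.16). Traf3, an adaptor that leads from TLR7 to IRF7, had 304 and 1028 counts, 5.97-fold higher. Unc93b1, the chaperone that carries these receptors to endosomes, had 5110 and 472 counts, 6.14-fold lower (interval 5.58 to 6.76). Receptor and chaperone thus differed in opposite directions. Hsp90b1, the folding chaperone of toll-like receptors, was 2.30-fold higher.

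NF-kB genes and immediate-early genes were more often higher than lower. Of 18 NF-kB genes, 7 were higher and 1 were lower, at a median of 0.75. Tnfaip3, the feedback enzyme A20, had 1265 counts with PBS and 3810 with treatment, 5.31-fold higher, and Nfkbie and Ikbkb, an inhibitor and a kinase of the pathway, were 2.57-fold and 2.30-fold higher. Nfkbia, the main inhibitor, had 16921 and 5985 counts and was not called. Icam1, an adhesion gene that NF-kB induces, had 963 counts with PBS against 0, and so was at least 182-fold lower. Of 22 immediate-early genes, 9 were higher and 2 were lower, at a median of 0.53, or 0.96 after the length and GC adjustment. Ier5, Jun and Fosb had 1318, 340 and 1002 counts with PBS and 8758, 2065 and 4116 with treatment. They were 11.7-fold, 10.7-fold and 7.25-fold higher. Dusp1, a phosphatase of MAP kinases, had 56682 and 7395 counts, 4.34-fold lower.

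MHC class II presentation was lower throughout its abundant members. Of 11 well-counted genes, 8 were lower and 0 higher, with a median log2 ratio of -1.95, or -1.63 after the length and GC adjustment. H2-Ab1, H2-Aa and H2-Eb1, chains of the class II molecule, were 8.01-fold, 3.17-fold and 3.85-fold lower. H2-DMa, part of the peptide-loading molecule, had 46979 counts with PBS and 4214 with treatment, 6.32-fold lower, and its partner genes H2-DMb1 and H2-DMb2, which are similar to each other, were 11.7-fold and 12.1-fold lower. Cd74, the invariant chain, had 254798 and 26323 counts. H2-Oa, part of a regulator of H2-DM, had 737 and 2 counts, a log2 ratio of -7.71. Ciita, the factor that switches class II genes on, differed from its targets, with 2118 and 1123 counts and a log2 ratio of -0.10 (interval -0.20 to 0.01). The macrophage markers, from 29550 to 9197 CPM in sum, were lower with them, and their part in the result was not tested.

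The class II promoters are shown for the Y-box, an inverted CCAAT element. The letters searched were CTGATTGG on both strands of the same windows, and capitals mark the match.

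H2-Aa (chr17:34287837-34287904, minus strand): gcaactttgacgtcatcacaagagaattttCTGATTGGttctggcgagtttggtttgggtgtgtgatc

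H2-Eb1 (chr17:34305775-34305842, plus strand): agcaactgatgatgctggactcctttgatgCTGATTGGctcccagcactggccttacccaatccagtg

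H2-Aa, H2-Eb1 and H2-Oa, 3 of 11 class II members with 20 or more counts in either library and a window (27.3%), held the match, against 4.43% of all genes. Among well-counted genes with a window it was present in 5.63% of those called higher, 6.97% of those called lower and 6.54% of the others.

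MHC class I presentation, which shows peptides to CD8+ T cells, had 1 of 18 genes higher and 6 lower, with a median of -0.53, or -0.07 after the length and GC adjustment, under which 0 were higher and 2 lower. B2m, the light chain, had 52752 counts with PBS and 66320 with treatment, 2.22-fold higher, but 0.08 on the log2 scale after the adjustment. H2-D1, a heavy chain, had 82011 and 21965 counts, 2.12-fold lower, and H2-K1, the other classical chain, had 55529 and 22301 and was not called. Psmb10, a catalytic subunit of the immunoproteasome, was 2.46-fold lower. Psmb8 and Psme2, which serve the same complex, had log2 ratios of 0.35 and 0.14.

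Proteasome subunits were lower as a group. Of 28 well-counted core and cap genes, 16 were lower and 0 higher, with a median log2 ratio of -1.53, or -1.07 after the length and GC adjustment. Psma7, of the outer ring, had 29483 counts with PBS and 2254 with treatment, 7.41-fold lower (interval 7.10 to 7.74). Psmc5 and Psmc4, ATPases of the cap, had 12461 and 18949 counts with PBS and 841 and 1934 with treatment, with log2 ratios of -3.07 and -2.47. Psmb6, a catalytic subunit, was 3.11-fold lower, while Psma2, in the same ring as Psma7, had 23890 and 21739 counts and was not called. Subunits of a complex in fixed proportions thus spanned log2 ratios from -3.07 to 0.70. Of 30 well-counted proteasome genes in the T cell libraries, 0 were called in either direction.

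Lysosomal genes were lower as well. Of 30 well-counted genes, 17 were lower and 0 higher, with a median of -1.20 before and after the length and GC adjustment. Ctsb and Ctsz, cathepsins that cut proteins in lysosomes, had 83032 and 106802 counts with PBS and 4190 and 11236 with treatment, 11.2-fold and 5.39-fold lower. Ctss, the cathepsin that trims the invariant chain, had 204856 and 50979 counts, 2.28-fold lower. Lgmn, Ctsa and Lamp1, which encode legumain, cathepsin A and a lysosomal membrane protein, were between 4.31-fold and 6.47-fold lower. In the T cell libraries 4 of 29 well-counted lysosomal genes were lower and 0 higher.

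**Figure D3:**
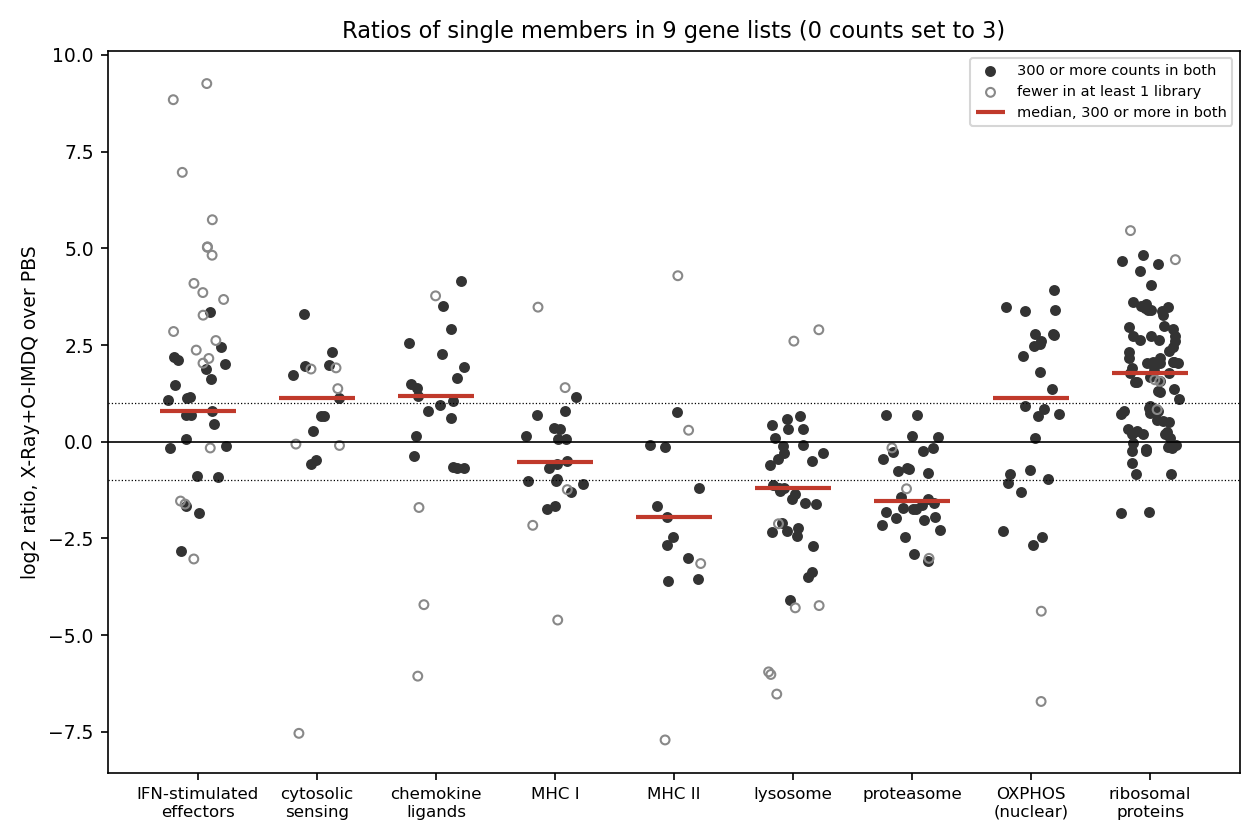
Log2 ratio of single genes in 9 lists. Filled points have 300 or more counts in both DC libraries, open points fewer in at least 1, red lines are medians of the filled points, and dotted lines mark 2-fold. Medians run from -1.95 for MHC class II to 1.78 for ribosomal proteins, and most lists hold genes on both sides of 0.

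Of 13 well-counted costimulatory and coinhibitory ligands, 3 were higher and 3 lower, and the median was 0.20. Over 20 measured genes 3 were higher and 8 lower, and the median was -0.18. Cd86 (chromosome 16, 36424231 to 36486443, GRCm39) had 3388 counts with PBS and 8712 with treatment, 4.54-fold higher (interval 4.36 to 4.72). Cd40, the receptor through which T cells license DCs, had 2318 and 2532 counts, 1.93-fold apart and not called. Lgals9, a ligand of TIM-3, and Cd48, a ligand of 2B4, were 2.51-fold and 2.43-fold lower. Among 14 genes of mature, migrating DCs 5 were higher and 4 were lower, at a median of 0.15, or -0.12 after the length and GC adjustment, and among those with 1000 or more counts in both libraries 1 was higher and 4 lower. Over 24 measured genes 8 were higher and 10 lower. Cd200, an inhibitory ligand, and Marcks, an actin-linked substrate of protein kinase C, had 450 and 393 counts with PBS and 1315 and 1140 with treatment, 5.16-fold and 5.12-fold higher. Cd83, a surface marker of maturation, had 30750 and 6068 counts, 2.87-fold lower, and Ccr7, the lymph-node homing receptor, had 8296 and 1382, 3.40-fold lower.

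Chemokine ligands, which draw leukocytes, were higher in 11 of 19 well-counted genes and lower in 0, with a median of 1.17, or 0.55 after the length and GC adjustment, under which 8 were higher and 1 lower. Ccl17, a ligand of CCR4, had 12285 counts with PBS and 79339 with treatment, 11.4-fold higher, though 1.91 on the log2 scale after the adjustment against 3.51 before. Ccl3, an inflammatory chemokine, had 1296 and 5490 counts, 7.47-fold higher, and Ccl22, which shares CCR4 with Ccl17, had 758 and 2061, 4.80-fold higher. Cxcl3, a ligand of CXCR2, had 310 and 1035 counts, 5.89-fold higher. Cxcl10, a ligand of CXCR3, had 3242 and 5203 counts (2.83-fold), while Cxcl9, which binds the same receptor, had 7640 and 7489 and was not called. Ccl24 and Cxcl16 had log2 ratios of -0.68 and -0.69.

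The receptors ran against the ligands. Of 9 well-counted chemokine and chemoattractant receptors, 5 were lower and 1 higher, with a median of -1.61, or -1.10 after the length and GC adjustment. Ltb4r1, the receptor for leukotriene B4, had 11295 counts with PBS and 850 with treatment, 7.53-fold lower (interval 7.02 to 8.08). Ccrl2, a chemerin-binding receptor, and C3ar1, the receptor for complement C3a, were 3.09-fold and 3.05-fold lower. Ccr2 and Ccr1, receptors of monocyte-drawing chemokines, had 5860 and 10587 counts with PBS and 4272 and 4969 with treatment, and neither was called.

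Cytokine and inflammasome genes had 2 of 10 well-counted members higher and 4 lower, with a median of -0.78, or -0.19 after the length and GC adjustment, under which 2 were higher and 2 lower. Over 25 measured genes 4 were higher and 14 lower, and the median was -1.33. Il1b, the inflammatory cytokine, had 43872 and 34424 counts and was not called, while Il1rn, its natural antagonist, had 32665 and 3763, 4.92-fold lower. Il18bp, the decoy of IL-18, was 5.52-fold lower. Pycard, the inflammasome adaptor ASC, was 2.32-fold higher and Gsdmd, the pore-forming executor, 2.51-fold lower. Il12b and Il10, genes of a T cell-activating and a dampening cytokine, had 592 and 504 counts with PBS and 0 with treatment. They were at least 112-fold and 95.2-fold lower at the floor of 3 counts.

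Genes for uptake and phagocyte signalling held abundant members that were lower and others that were not called. Of 19 genes for Fc gamma receptors and ITAM signalling, 8 were lower and 2 higher, with a median of -0.21, or -0.77 after the length and GC adjustment. Fcgr2b, the inhibitory Fc receptor, had 88585 counts with PBS and 16537 with treatment, 3.04-fold lower. Fcer1g, the shared signalling chain, had 89924 and 76163 counts and was not called. Of 17 C-type lectins and pattern receptors, 5 were lower and 5 higher, with a median of 0.24, or -0.12 after the length and GC adjustment. Clec4n, the fungal receptor dectin-2, had 220647 and 17059 counts, 7.33-fold lower, and Mgl2, a galactose lectin, had 67405 and 6826, a log2 ratio of -2.48. Cd36, a scavenger receptor, had 305 and 1106 counts, 6.40-fold higher.

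Of 12 complement and efferocytosis genes, 4 were lower and 2 higher, with a median of 0.14, or -0.44 after the length and GC adjustment. C1qa, C1qb and C1qc encode the chains of the same C1q molecule. They had 19209, 30298 and 44468 counts with PBS and 435, 6119 and 2788 with treatment, with log2 ratios of -4.65, -1.49 and -3.18. The direction was shared and the sizes were not. Cfp, which encodes properdin, was 5.31-fold lower. Of 12 suppressive myeloid genes, 3 were higher and 3 were lower, at a median of -0.25, or -0.53 after the length and GC adjustment. Over 21 measured genes 4 were higher and 11 lower. Arg1, the arginase of suppressive myeloid cells, had 187939 and 14831 counts, 7.18-fold lower, and Lgals3, which encodes galectin-3, had 162680 and 33500, 2.75-fold lower. Vegfa, the angiogenic factor, had 302 and 1044 counts, 6.10-fold higher. Apoe, a lipid carrier, and Plin2, a coat protein of lipid droplets, were 4.89-fold and 8.54-fold lower, in a list of 14 cholesterol and lipid genes with 5 higher and 5 lower, or 1 and 4 after the length and GC adjustment. C1q, Apoe and Arg1 are among the macrophage markers given above, and how far the share of such cells differed was not tested.

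Energy metabolism was divided. Of 20 well-counted glycolysis and hypoxia genes, 10 were lower and 5 higher, with a median of -0.95, or -0.48 after the length and GC adjustment. Aldoa, Pkm, Ldha and Gpi1, enzymes along the pathway, had 107629, 65038, 39883 and 27189 counts with PBS and 11773, 9304, 6028 and 3516 with treatment. They were between 3.75-fold and 5.18-fold lower. At the entry step Hk2 was 36.0-fold higher (interval 32.9 to 39.5). Hif1a, the oxygen-sensitive transcription factor, had 1703 and 4826 counts, a log2 ratio of 2.32, and Egln3, an enzyme that marks HIF for destruction, had 520 and 0, at least 98.2-fold lower.

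Of 26 nuclear genes for oxidative phosphorylation, 13 were higher and 5 were lower, at a median of 1.14, or 0.85 after the length and GC adjustment. Cox6c, Atp5e and Cox7a2, small subunits, had 7841, 5538 and 10687 counts with PBS and 49262, 33189 and 41390 with treatment. They were 11.1-fold, 10.6-fold and 6.83-fold higher. Ndufa9, Uqcrc1 and Uqcrc2, larger subunits of complexes I and III, had 6245, 14372 and 4104 counts with PBS and 637, 1644 and 367 with treatment, between 4.95-fold and 6.34-fold lower. Genes of the same complexes thus lay on both sides. All 7 well-counted genes encoded in mitochondrial DNA were higher, with a median of 2.16, or 1.44 after the length and GC adjustment, under which 5 were higher. They ran from mt-Co1, with 57348 and 70653 counts and 2.17-fold higher, to mt-Nd6, with 510 and 4086 counts and 14.1-fold higher. In the T cell libraries 0 of 28 nuclear genes were higher and 5 lower, and 0 of 7 mitochondrial genes were higher and 1 lower.

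Cytosolic ribosomal proteins were higher in 47 of 76 well-counted genes and lower in 2, with a median log2 ratio of 1.78, or 1.82 after the length and GC adjustment. Their summed level was 38960 CPM with PBS and 104600 CPM with treatment. Rps28, Rps21 and Rpl35 had 1491, 546 and 3144 counts with PBS and 23909, 7853 and 43335 with treatment, 28.3-fold, 25.4-fold and 24.3-fold higher. Rplp0, the stalk protein, had 60876 and 9809 counts, 3.52-fold lower, and Rps14 and Rps6 had log2 ratios of -0.15 and -0.16. These genes have many processed copies in the genome, and the sources used here do not say how shared reads were assigned. In the T cell libraries 16 of 76 were lower and 0 higher. Translation factors were mixed, with 9 of 28 higher, 7 lower and a median of 0.00, and over 32 measured ones 9 were higher and 10 lower. Eif3a and Eif2s2, of the initiation complexes, were 7.03-fold and 5.55-fold higher, and Eif2s1, which shares a complex with Eif2s2, was 4.21-fold lower.

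**Figure D4:**
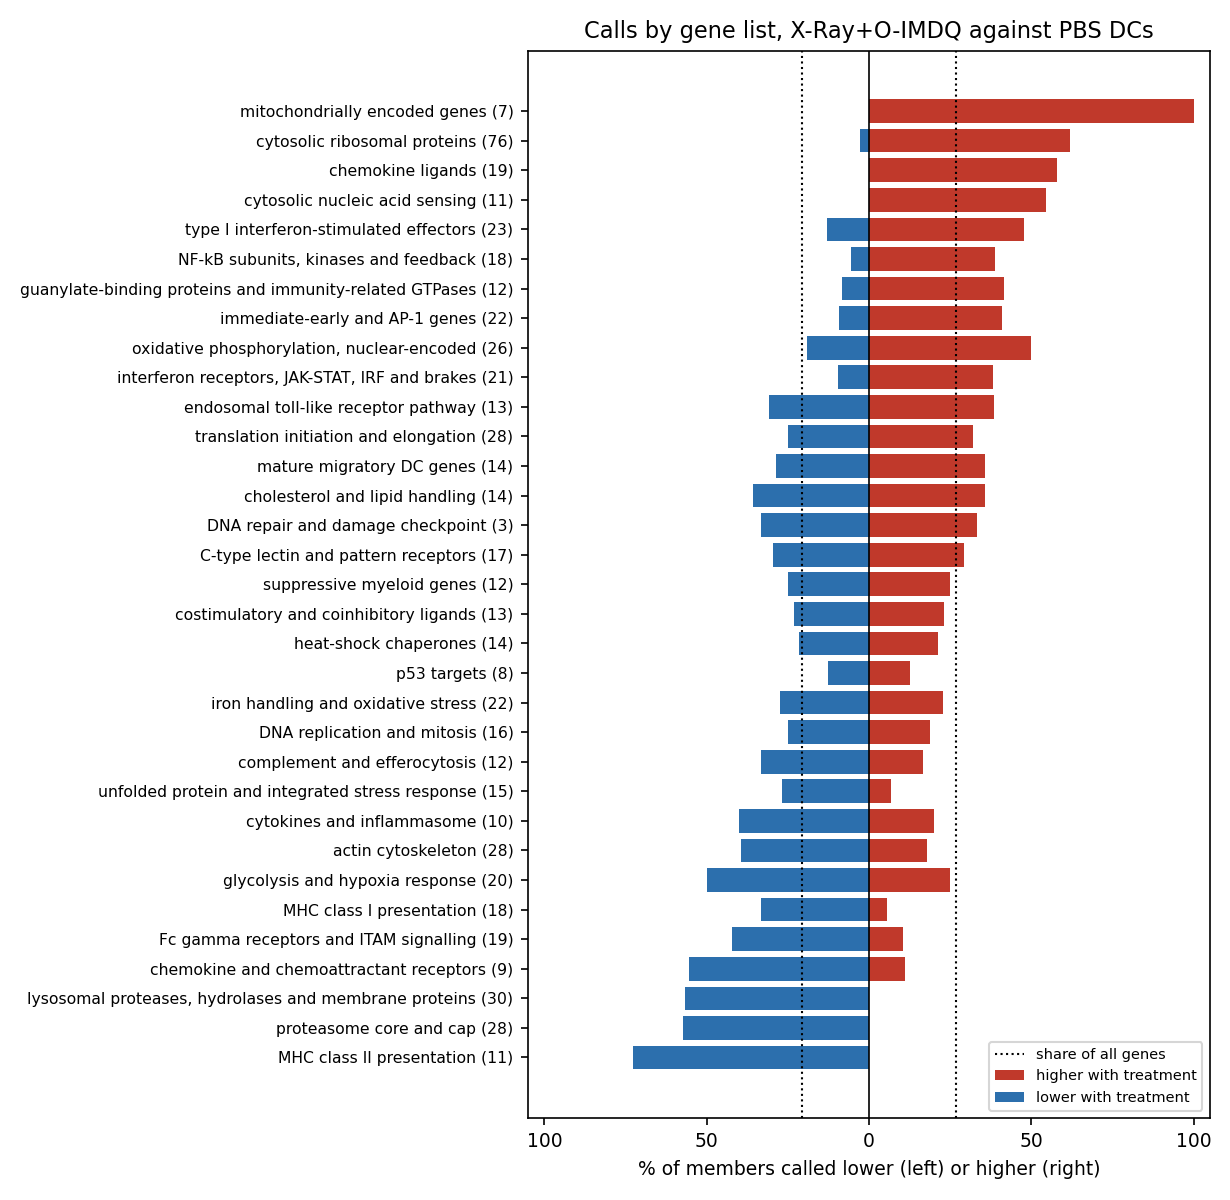
Share of well-counted members called higher (red, right) or lower (blue, left) in each gene list, in percent, with the number of members in brackets; dotted lines are the shares over all genes, 26.9% higher and 20.5% lower. MHC class II, proteasome and lysosome lists at the bottom have no red bar.

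Stress and structure genes gave no common direction. Of 14 heat-shock chaperones, 3 were higher and 3 lower. Hspe1 and Hsp90aa1 were 4.19-fold and 3.07-fold higher, and Hspa8, the constitutive chaperone, had 127596 counts with PBS and 17191 with treatment, 4.21-fold lower. Of 15 genes of the unfolded protein response, 1 was higher and 4 lower, with a median of 0.07, or -0.36 after the length and GC adjustment. Xbp1, its main transcription factor, had 11786 and 756 counts, 8.84-fold lower. Of 8 well-counted p53 targets, 1 was higher and 1 lower, and over 23 measured ones 7 were higher and 9 lower. Pmaip1, the death gene NOXA, had 500 and 2322 counts, 8.19-fold higher, while Cdkn1a, the cell-cycle inhibitor p21, had 26427 and 6152, 2.43-fold lower. Mdm2, the feedback regulator of p53, had 2139 and 1633 counts and was not called.

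Of 22 iron and oxidative-stress genes, 5 were higher and 6 lower. Sod1 and Txn1, a superoxide dismutase and thioredoxin, had 692 and 9559 counts with PBS and 3501 and 22280 with treatment, 8.93-fold and 4.11-fold higher. Cyba and Ncf4, of the phagocyte oxidase, had 145046 and 15863 counts with PBS and 20315 and 1535 with treatment, 4.05-fold and 5.86-fold lower. Ftl1, the ferritin light chain, was 11.0-fold lower, while Fth1, the heavy chain of the same shell, had 227286 and 110063 counts and was not called. Of 28 actin genes, 5 were higher and 11 were lower, at a median of -0.84. Capg, a capping protein of macrophages, had 144464 and 10194 counts, 8.03-fold lower. Actb, the beta-actin gene, had a log2 ratio of 0.13.

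Of 40 measured replication and mitosis genes, 8 were higher and 20 lower (median -1.03), while of 16 well-counted ones 3 were higher and 4 lower. Cdc45, a helicase factor, had 1268 counts with PBS and 0 with treatment, and Aurkb and Plk1, mitotic kinases, had 638 and 372 with PBS and 0 with treatment. Only 3 DNA repair genes were well counted, and over 26 measured ones 7 were higher and 14 lower. Parp2, a sensor of DNA breaks, had 3624 and 404 counts, 5.08-fold lower, and Atr, the replication-stress kinase, had 52 and 1235, 41.9-fold higher.

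Genes counted in 1 library and nearly absent from the other were more often those of the PBS library. Of 5507 genes with 300 or more counts with PBS, 506 had 0 to 3 with treatment. Of 4311 genes with 300 or more counts with treatment, 59 had 0 to 3 with PBS. The treated library was also the shallower. The most counted of these, named after their values were seen, were Prdx4, an antioxidant enzyme of the endoplasmic reticulum, with 4794 counts with PBS and 2 with treatment, and Mtfr1l and Snapin with 4103 and 3893 against 2 and 1. Slfn4, a myeloid gene of the Schlafen family, had 2 counts with PBS and 1377 with treatment.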

How the data were processed

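RNA-seq of 2 tumour DC libraries was analysed, with 2 T cell libraries as a reference. The authors deposited raw read counts per gene in whole numbers and FPKM, which they scaled to gene length and library total. FPKM was checked to equal count over length and total. Build GRCm39 and the tools R 3.3.1, DESeq2 1.24.0, RSEM 1.2.12 and HISAT2 2.0.4 are named in the submitters' processing notes. Their roles, and whether strand was used or estimates rounded, are not given in the sources used here. Each column was assigned through the read name in a sample's description, because the titles carry other replicate numbers. The 4 columns of 2 other libraries were not used here.

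TMM factors came from edgeR 4.0.16 (R 4.3.3), fitted to the 2 DC libraries, and intervals from scipy 1.17.1. No symbol is given for 51 genes, and 44 have a symbol that another gene carries too. With 1 library per group no test was planned, and ratios with counting intervals were used. The libraries held 23797357 and 14056428 counts, and the floor was set at 3 counts in each. The interval and the call were run on data simulated with counting error only. That check cannot speak to variation between libraries, which the simulation did not hold.

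The members, 33 gene lists and 17 marker lists were chosen with earlier results of these data known. Named genes were the 15 highest and 15 lowest with 300 or more counts in both, without gene models, receptor segments, ribosomal and mitochondrial genes, and the 10 most counted of each library. To these came, per list, the 6 most counted members, members at least 4-fold apart and members with 300 or more counts in 1 library and at most 3 in the other, and 22 genes of interest. Alternatives were total-count CPM, DESeq2 1.42.0 size factors, upper-quartile scaling, other count minimums, log2(CPM + 1), a 4-fold threshold and a length adjustment. Chosen after seeing the data were the promoter motifs, the comparison of called genes by length, GC and T cell calls, and a length and GC adjustment with GC from GENCODE M21 transcripts.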

Additional observations from a re-analysis of the deposited data

Results flagged for a closer look

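Cd86 and Cdkn1a differed in opposite directions in the 2 cell types. Cd86 had a log2 ratio of 2.18 between the DC libraries and of -1.12 between the T cell libraries, where it had 855 counts with PBS and 398 with treatment. Cdkn1a had a log2 ratio of -1.28 between the DC libraries and of 2.62 between the T cell libraries, where it had 1725 and 10697 counts. With 1 library per group the difference between cell types was not tested.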

How the results depend on the processing

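Among well-counted genes, 930 were higher and 709 lower. Requiring 1000 or more counts in both libraries left 369 and 260, 100 or more gave 1698 and 1239, and a 4-fold threshold gave 304 and 239. Among genes with 20 or more counts in either library, 3112 higher became 1922 at 4-fold, and 4317 lower became 1825 when 20 or more counts were required in both. Scaling by total counts, DESeq2 or upper quartile left every count of calls over all genes within 1.5 times, and the median log2 ratio of well-counted genes stayed between 0.11 and 0.22. After the length and GC adjustment 742 were higher and 776 lower, so the share of called genes that were higher was 48.9% against 56.7%. Among genes filtered on counts in both libraries the majority direction of a list turned in 4 cases: toll-like receptor genes (1 higher and 2 lower) and translation factors (2 and 3) at 4-fold, mature DC genes with 1000 or more counts in both (1 and 4), and iron and oxidative-stress genes with 100 or more in both (7 and 6). No replicate could be left out. No paired analysis was possible because each group has 1 library and the result comes from no test. Depth was ample for the well-counted genes, while a count of 0 allows 0.123 CPM with PBS and 0.218 CPM with treatment.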
